A study of Mus musculus with 2 samples.

Results

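The cell cycle genes described here are 37 named genes of DNA replication and cell division, out of the 33696 genes in the count matrices. They were chosen by name, and both matrices hold all 37. Of these, 12 act from late G1 through S phase (the G1/S members), 22 act from G2 to the end of mitosis (the G2/M members), and 3 (Stmn1, Tubb5 and H2az1) were put in neither list. Their UMIs (unique molecular identifiers, 1 per captured transcript) were counted in CD8 T lymphocytes of the spleen, the lineage that kills infected cells, of wild-type C57BL/6 mice. The CTRL group received sesame oil, and the DHEA group received dehydroepiandrosterone, an androgen precursor given as a mouse model of polycystic ovary syndrome. The doses were 40 mg/kg in 20 µL of the oil, injected under the skin each day over 21 days. CD8 T cells were drawn from the spleens with magnetic beads and pooled, and each group is 1 droplet library with 3' chemistry. The series' text does not say how many animals a library holds. Cells were kept with at least 200 detected genes, under 10% mitochondrial UMIs, a UMI of Cd8a or Cd8b1 and a UMI of Cd3d, Cd3e or Cd3g, so every cell carries the defining markers of its label by construction.

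A cell that divides first copies its DNA and then splits it. Cyclin E marks entry into S phase, when the MCM helicase opens the DNA, PCNA clamps the polymerases to it, and ribonucleotide reductase and thymidylate synthase supply the nucleotides. Cyclins A and B with CDK1 then drive mitosis, in which kinesins and Aurora kinases build the spindle, centromere proteins attach it, and the anaphase-promoting complex ends it. Resting T cells leave this cycle, and naive CD8 T cells divide seldom until antigen or cytokine calls on them. Granzymes are the proteases of cytotoxic granules, made by effector and part of the memory cells.

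Promoters are shown because the G1/S and G2/M genes are known to answer to different elements. E2F factors act on many G1/S genes, while the cell cycle genes homology region (CHR) and CCAAT boxes are known from G2/M genes. Sequences are RefSeq promoters of the GRCm38.p6 build, 300 bases from 250 before to 50 after the annotated start, read along the gene's strand. The searched letters, on both strands, were TTTGGCGC, TTTCGCGC, TTTGGCGG and TTTCCCGC for E2F, TTTGAA and TTCGAA for the CHR, and CCAAT. Among the G1/S members 11 of 12 matched the table, with 12 promoters, of which 5 (41.7%) held an E2F match, against 2.37% of all 32851 promoters of that length. Among the G2/M members 19 of 22 matched, with 1 promoter each. Of these 15 (78.9%) held both a CHR and a CCAAT match, against 7.53% of all promoters, and 1 (5.26%) held an E2F match. The 2 G1/S promoters with both a CHR and a CCAAT match make 16.7% of that list. The CCAAT match alone did not separate the lists. It was in 10 of 12 G1/S promoters (83.3%) and 17 of 19 G2/M promoters (89.5%), against 37.4% of all promoters. The CHR match was in 2 (16.7%) and 15 (78.9%), against 19.2% of all promoters. A match is a run of letters and not a measured binding site. The first 3 below are the G1/S members with the most UMIs among those with an E2F match, in capitals. In Mcm6 the first 2 matches, on opposite strands, overlap each other. The next 3 are the G2/M members with the most UMIs that held both a CHR and a CCAAT match, both in capitals. Ccnb2 and Ube2c hold both as well and were added after their values were seen. They are 2 of the 3 members at least 1.5-fold higher in DHEA among those with at least 200 UMIs. The third, Birc5, held no CHR, CCAAT or E2F match and is not shown. Ccnb1, with fewer UMIs and a ratio of similar size, held CCAAT matches and no CHR match.
Mcm6, chr1:128359656-128359955, minus strand: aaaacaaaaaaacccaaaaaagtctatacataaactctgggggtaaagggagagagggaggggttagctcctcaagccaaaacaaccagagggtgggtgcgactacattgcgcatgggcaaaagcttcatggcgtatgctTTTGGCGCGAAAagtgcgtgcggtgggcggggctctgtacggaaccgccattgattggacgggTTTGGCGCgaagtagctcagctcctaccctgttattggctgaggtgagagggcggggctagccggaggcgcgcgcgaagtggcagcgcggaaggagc
Mcm7, chr5:138171834-138172133, minus strand: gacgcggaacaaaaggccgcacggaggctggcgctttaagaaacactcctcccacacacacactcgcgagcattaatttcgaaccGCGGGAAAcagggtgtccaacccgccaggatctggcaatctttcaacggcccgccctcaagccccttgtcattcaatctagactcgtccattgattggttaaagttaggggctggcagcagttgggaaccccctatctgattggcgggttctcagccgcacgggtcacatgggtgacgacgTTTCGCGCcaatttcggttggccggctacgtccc
Mcm3, chr1:20820263-20820562, minus strand: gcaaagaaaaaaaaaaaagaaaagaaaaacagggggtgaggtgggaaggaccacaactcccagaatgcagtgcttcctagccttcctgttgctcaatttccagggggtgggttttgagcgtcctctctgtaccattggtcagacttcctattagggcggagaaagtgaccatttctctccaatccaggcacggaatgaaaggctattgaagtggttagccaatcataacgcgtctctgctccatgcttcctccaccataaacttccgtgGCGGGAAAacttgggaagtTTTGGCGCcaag
Hmgb2, chr8:57511593-57511892, plus strand: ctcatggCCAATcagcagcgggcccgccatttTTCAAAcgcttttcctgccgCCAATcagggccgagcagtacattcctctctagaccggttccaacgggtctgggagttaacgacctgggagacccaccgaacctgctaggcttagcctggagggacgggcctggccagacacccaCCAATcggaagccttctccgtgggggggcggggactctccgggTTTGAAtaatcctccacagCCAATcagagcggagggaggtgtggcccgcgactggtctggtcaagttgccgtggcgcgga
Cenpa, chr5:30666636-30666935, plus strand: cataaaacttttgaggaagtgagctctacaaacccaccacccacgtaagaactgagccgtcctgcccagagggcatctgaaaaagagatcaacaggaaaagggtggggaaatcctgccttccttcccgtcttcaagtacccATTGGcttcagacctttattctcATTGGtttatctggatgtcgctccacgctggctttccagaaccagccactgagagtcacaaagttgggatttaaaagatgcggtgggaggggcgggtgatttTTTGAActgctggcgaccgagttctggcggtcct
Kif23, chr9:61946750-61947049, minus strand: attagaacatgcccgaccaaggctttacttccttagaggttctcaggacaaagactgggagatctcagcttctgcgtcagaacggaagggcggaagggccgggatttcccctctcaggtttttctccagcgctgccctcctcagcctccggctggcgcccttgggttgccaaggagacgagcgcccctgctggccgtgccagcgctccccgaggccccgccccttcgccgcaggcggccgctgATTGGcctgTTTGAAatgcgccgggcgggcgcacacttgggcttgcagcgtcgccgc
Ccnb2, chr9:70421505-70421804, minus strand: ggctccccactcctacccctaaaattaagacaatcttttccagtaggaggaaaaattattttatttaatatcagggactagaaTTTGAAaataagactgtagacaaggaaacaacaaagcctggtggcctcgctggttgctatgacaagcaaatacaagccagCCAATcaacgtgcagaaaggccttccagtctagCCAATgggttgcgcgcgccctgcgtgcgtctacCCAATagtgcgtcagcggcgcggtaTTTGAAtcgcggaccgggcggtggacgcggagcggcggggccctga
Ube2c, chr2:164769679-164769978, plus strand: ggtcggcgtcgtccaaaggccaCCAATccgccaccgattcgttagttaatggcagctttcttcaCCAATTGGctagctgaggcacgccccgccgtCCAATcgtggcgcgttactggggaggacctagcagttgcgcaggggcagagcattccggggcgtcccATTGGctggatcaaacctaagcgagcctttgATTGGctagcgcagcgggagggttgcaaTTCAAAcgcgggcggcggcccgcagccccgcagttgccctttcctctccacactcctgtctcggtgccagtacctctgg

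The 2 libraries held 8717 CTRL cells with 49239407 UMIs and 10699 DHEA cells with 50077687 UMIs, at medians of 5615 and 4483 UMIs a cell. Of the barcodes, 51 occurred in both libraries, 44 of them among the CTRL cells and 45 among the DHEA cells used here, and they were kept. Scrublet, a doublet caller, marked 0 of 9210 filtered CTRL barcodes and 1 of 11671 DHEA barcodes. A caller that marks under 0.5% of so many cells has not worked, and no doublet was removed. With 1 library per group no difference has a replicate check and no test was possible. Values are CPM (UMIs per 1000000 of a library's summed UMIs), ratios are log2 of DHEA over CTRL, and brackets hold exact 95% intervals that cover counting error only. They are too narrow for genes whose UMIs lie in few cells: the 10 cells with the most UMIs held 23.6% of the CTRL and 27.4% of the DHEA UMIs of the G2/M members without Hmgb2.

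Over all cells the replication genes stood at the same summed level in both libraries, and the mitotic genes were modestly higher in the DHEA library. The 12 G1/S members summed to 256 CPM in each library, a log2 ratio of -0.004 (-0.04 to 0.03). The 22 G2/M members summed to 338 CPM in CTRL and 388 in DHEA, a log2 ratio of 0.20 (0.17 to 0.23). Hmgb2, a chromatin protein that resting lymphocytes also carry, made up most of that sum. Without it the G2/M sum was 114 CPM in CTRL and 130 in DHEA, a log2 ratio of 0.19 (0.14 to 0.24). Of the 37 members, 31 had at least 200 UMIs over both libraries, and their median log2 ratio was 0.20, beside -0.002 for all 10515 genes measured. The G1/S median was 0.04 over 11 genes, 6 of them higher in DHEA, and the G2/M median was 0.23 over 17 genes, 14 of them higher. With the rarer genes included, 27 of 37 members were higher and 10 lower. Of all 10515 genes measured, 5204 were higher and 5311 lower. At a fold of 1.5 or more, 3 members (Birc5, Ube2c and Ccnb2) were higher in DHEA, where 1.81% of all genes were, and 0 were lower, where 1.44% of all genes were. The count of 3 moved with the cells used. It was 1 of 21 measured members without the deepest 5% of cells, 1 of 32 with all filtered cells, 1 of 29 without cells with at least 2 markers of other lineages, and 0 of 16 when every cell was thinned to 2000 UMIs.

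**Figure D1:**
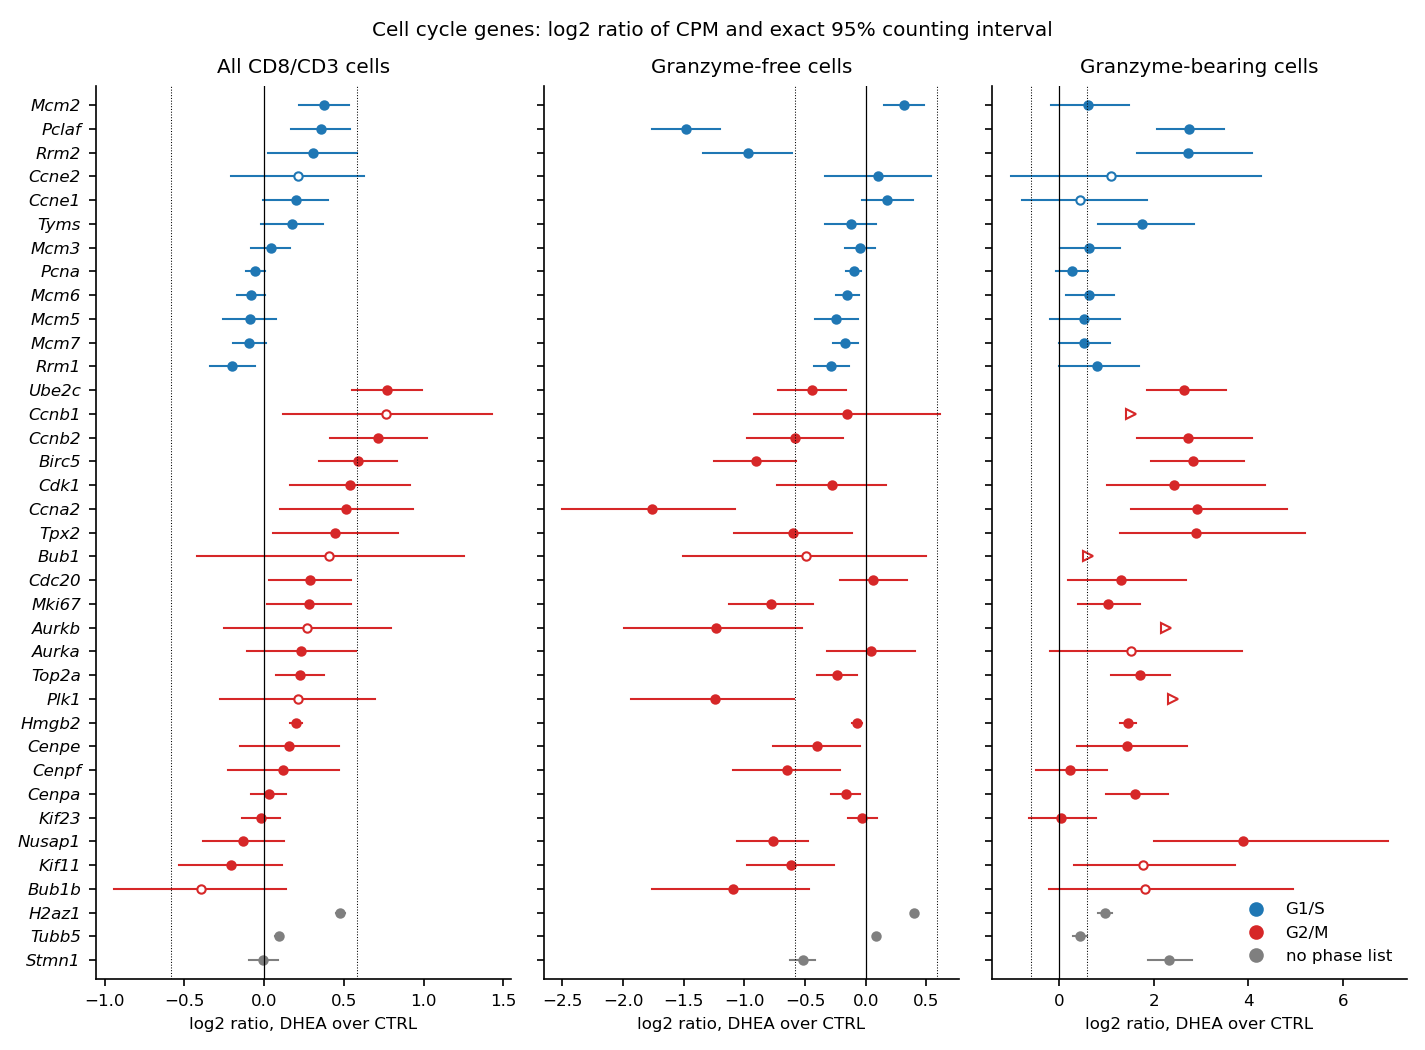
Log2 ratio of DHEA over CTRL (x axis) of each of the 37 members (rows) in all cells, granzyme-free cells and granzyme-bearing cells, with lines for exact 95% counting intervals and dotted lines at a fold of 1.5. Open circles had too few UMIs to be measured, and open triangles are lower bounds for genes at 0 UMIs in CTRL. Of the 22 G2/M members (red) 18 lie above 0 over all cells, 2 in granzyme-free cells and all 22 in granzyme-bearing cells. Of all genes measured, 5204 of 10515, 6053 of 12697 and 3838 of 7152 were above 0 in these classes.

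Of the G1/S members, Pcna and 4 of the 5 MCM genes were nearly level, and Mcm2, Rrm1, Rrm2 and Pclaf were not. Pcna, the sliding clamp of the polymerases, had 87.0 CPM in CTRL and 83.8 in DHEA, a log2 ratio of -0.05 (-0.12 to 0.01). The MCM genes encode subunits of the replicative helicase. Mcm3 (22.3 and 22.9 CPM), Mcm5 (12.1 and 11.4), Mcm6 (41.9 and 39.6) and Mcm7 (32.9 and 30.9) had log2 ratios between -0.09 and 0.04 with intervals that hold 0. Mcm2 stood apart from them with 11.8 CPM in CTRL and 15.3 in DHEA, a log2 ratio of 0.38 (0.22 to 0.53). Its ratio was 0.32 (0.15 to 0.48) among granzyme-free cells too. Rrm1 and Rrm2 are the large and small subunits of ribonucleotide reductase, and they went different ways. Rrm1 had 17.9 CPM in CTRL and 15.6 in DHEA, a log2 ratio of -0.20 (-0.34 to -0.06). Rrm2, the subunit made in S phase, had 3.98 and 4.91 CPM, a ratio of 0.30 (0.03 to 0.58). Pclaf, a PCNA-binding factor, had 8.75 and 11.2 CPM, a ratio of 0.35 (0.17 to 0.54). Tyms, thymidylate synthase, had 8.29 and 9.35 CPM, a ratio of 0.17 (-0.02 to 0.37). The E cyclins, which start S phase with CDK2, had 7.53 and 8.65 CPM for Ccne1 and 1.85 and 2.14 CPM for Ccne2, and both intervals hold 0.

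The G2/M members with the largest ratios were Ube2c, Ccnb1, Ccnb2, Birc5, Cdk1 and Ccna2. Ube2c, the ubiquitin-conjugating enzyme of the anaphase-promoting complex, had 5.50 CPM in CTRL and 9.38 in DHEA, a log2 ratio of 0.77 (0.55 to 0.99). Ccnb2, a B cyclin, had 2.94 and 4.83 CPM, a ratio of 0.71 (0.41 to 1.02). Birc5 (survivin), a subunit of the chromosomal passenger complex, had 4.61 and 6.93 CPM, a ratio of 0.59 (0.34 to 0.84). These 3 were carried by few cells, 69 or fewer in CTRL and 88 or fewer in DHEA. Cdk1, the mitotic kinase, had 2.05 and 2.98 CPM with a ratio of 0.54 (0.16 to 0.92). Its partner Ccna2 (cyclin A2) had 1.71 and 2.44 CPM with a ratio of 0.51 (0.10 to 0.93). Ccnb1, the other B cyclin, had 33 UMIs in CTRL and 57 in DHEA, a ratio of 0.76 (0.12 to 1.43). It is one of 6 members too rare to be measured, with Ccne2, Bub1, Bub1b, Aurkb and Plk1.

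The remaining G2/M members were closer to level. Mki67, the Ki-67 antigen of dividing cells, had 4.45 CPM in CTRL and 5.41 in DHEA, a log2 ratio of 0.28 (0.02 to 0.55). Top2a, the topoisomerase that untangles sister chromatids, had 13.8 and 16.2 CPM, a ratio of 0.22 (0.08 to 0.37). Cdc20, an activator of the anaphase-promoting complex, had 4.57 and 5.57 CPM, a ratio of 0.29 (0.03 to 0.55). Tpx2, a spindle assembly factor, had 1.95 and 2.66 CPM, a ratio of 0.45 (0.06 to 0.84). Hmgb2 had 224 and 258 CPM, a ratio of 0.20 (0.17 to 0.24). For 11 of the 22 G2/M members the interval holds 0. They are the centromere genes Cenpa, Cenpe and Cenpf, the checkpoint kinases Bub1 and Bub1b, the kinases Aurka, Aurkb and Plk1, the microtubule binder Nusap1 and the kinesins Kif11 and Kif23. Their ratios ran from -0.40 for Bub1b (70 and 54 UMIs) to 0.41 for Bub1 (23 and 31 UMIs).

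The 3 members outside both lists differed from each other. Stmn1 (stathmin, which takes microtubules apart) had 40.2 CPM in CTRL and 40.0 in DHEA, a log2 ratio of -0.005 (-0.10 to 0.09). Tubb5, a beta tubulin, had 568 and 606 CPM, a ratio of 0.09 (0.07 to 0.12). H2az1, which encodes the histone variant H2A.Z, had 371 and 516 CPM, a ratio of 0.48 (0.45 to 0.50). H2az1 kept a similar ratio in granzyme-free cells, 0.40 (0.37 to 0.43), and outside the G2/M cells defined next, 0.46 (0.43 to 0.49). So the H2az1 difference did not sit in the G2/M or the granzyme-bearing cells alone. Stmn1, level over all cells, had a ratio of -0.52 (-0.62 to -0.42) in granzyme-free cells and 2.32 (1.87 to 2.81) in granzyme-bearing cells.

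How closely each member keeps to cells in division was measured with G2/M cells, cells with UMIs of at least 3 different G2/M members, Hmgb2 not counted. This is a range set on a per-cell count and not a cell type. For each gene they were chosen without that gene. There were 77 such cells in CTRL and 108 in DHEA with all members counted, and they held 1.79% and 1.97% of all UMIs. These cells were not thinned. Of them 39 in CTRL and 47 in DHEA had exactly 3 members, and 361 and 349 further cells had 2. Chosen without Cenpa they were 46 and 75. Their median depths were 9010 and 6969 UMIs, beside 5590.5 and 4459 in the other cells, so the values below include many cells at the limit. Pclaf is no G2/M member, yet the G2/M cells held 95.8% of its UMIs in CTRL and 91.6% in DHEA. The same cells held 70.4% and 68.7% of the Rrm2 UMIs and 31.1% and 23.7% of the Tyms UMIs. The UMIs of the other 9 G1/S members lay mostly outside the G2/M cells, which held 6.91% and 5.96% of Pcna and 4.51% and 5.80% of Mcm6. The highest shares among these 9 were 18.7% for Ccne2 in CTRL and 14.7% for Mcm5 in DHEA. Cells outside are those with fewer than 3 G2/M members, and whether they rest was not tested. The median over the 12 G1/S members was 9.75% in CTRL and 10.1% in DHEA, beside 59.0% and 66.8% over the 22 G2/M members.

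The G2/M members fell along the same scale. Ccna2 (90.5% and 95.1%), Cenpf (90.3% and 84.5%), Ube2c (89.7% and 87.9%), Mki67 (88.6% and 80.1%), Aurkb (87.9% and 85.9%) and Birc5 (86.8% and 90.2%) had nearly all their UMIs in the G2/M cells. Kif23 was at 5.33% and 5.22%, Cenpa at 13.3% and 21.1%, and Hmgb2 at 16.1% and 22.8%. Stmn1 stood between at 45.7% and 48.7%, while Tubb5 was at 4.33% and 4.17% and H2az1 at 6.78% and 8.0%. The UMIs of Pcna, the MCM genes, Kif23, Tubb5 and H2az1 thus lay mostly in cells with fewer than 3 G2/M members, in both libraries. Kif23, the kinesin of cytokinesis, was common there: 11.5% of CTRL cells and 9.51% of DHEA cells outside the G2/M cells had a UMI of it, and Mki67 stood there at 0.278% and 0.406%. Within the G2/M cells, 15 of the 22 G2/M members were higher in DHEA and 7 lower, with intervals above 0 for 6 and below 0 for 1. The same counts over all genes were not taken in these cells, so the members cannot be set against genes at large there. Ccnb2 was higher in DHEA (114 and 219 CPM, log2 ratio 0.94, 0.59 to 1.30), and so were Ube2c (280 and 423 CPM, 0.59, 0.36 to 0.83) and Birc5 (226 and 332 CPM, 0.56, 0.29 to 0.82). The member with an interval below 0 was Kif11, a spindle kinesin, at 108 and 70.4 CPM, a ratio of -0.62 (-1.10 to -0.14). Mki67 was level there at 226 and 224 CPM, a ratio of -0.01 (-0.30 to 0.28). Ccne1 (43.2 and 22.3 CPM, -0.95, -1.78 to -0.16) and Pcna (337 and 253 CPM, -0.41, -0.66 to -0.16) were lower there in DHEA.

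**Figure D2:**
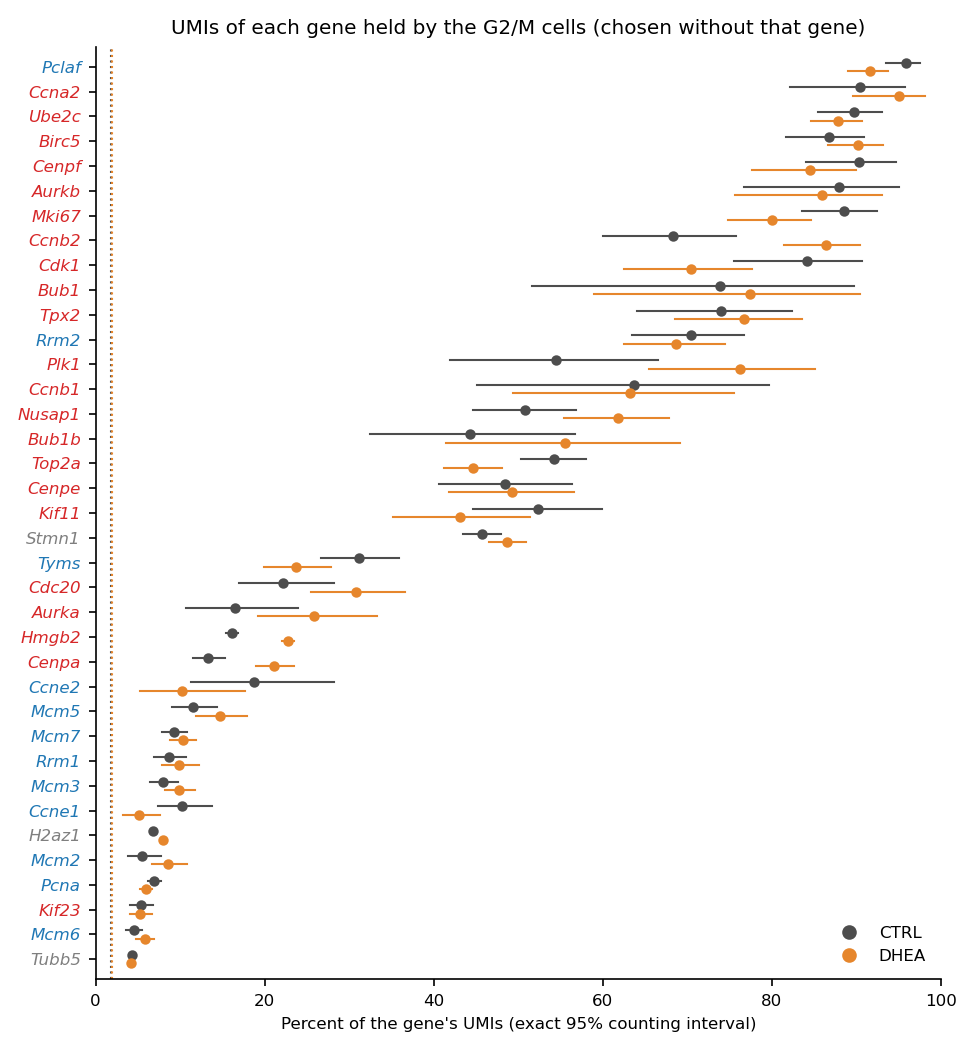
Percent of each member's UMIs (x axis, exact 95% counting intervals) that lay in G2/M cells chosen without that gene, in CTRL (grey) and DHEA (orange), gene names in blue for G1/S, red for G2/M and grey for neither. Dotted lines mark the share of all UMIs in those cells, 1.79% and 1.97%. Pclaf and Rrm2 lie with the mitotic genes, while the MCM genes, Pcna, Kif23, Tubb5 and H2az1 lie near the lower end.

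The cells that carried the mitotic genes differed between the libraries. A cell was called granzyme-bearing with at least 1 UMI of Gzma, Gzmb or Gzmk and granzyme-free otherwise. There were 127 granzyme-bearing cells in CTRL (1.46%, 1.22 to 1.73) and 550 in DHEA (5.14%, 4.73 to 5.58), which held 1.78% and 5.74% of all UMIs. Granzyme-bearing cells held 3.26% (2.81 to 3.75) of the UMIs of the G2/M members without Hmgb2 in CTRL and 33.6% (32.5 to 34.8) in DHEA. With Hmgb2 the shares were 3.09% and 26.5%. For the G1/S members they were 2.34% (2.08 to 2.62) and 14.6% (14 to 15.2). Of the CPM of the G2/M members without Hmgb2 in each whole library, granzyme-bearing cells gave 3.72 in CTRL and 43.7 in DHEA, and granzyme-free cells gave 110 and 86.2.

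Gene by gene, the DHEA shares were high for the members that keep to G2/M cells. Granzyme-bearing cells held 81.2% of the Ccna2 UMIs in DHEA and 4.76% in CTRL. They held 74.3% and 4.41% of Pclaf, 67.4% and 4.41% of Birc5, 61.8% and 3.57% of Rrm2, and 59.0% and 11.0% of Mki67. The 9 G2/M members at 50% or more in DHEA were Ccna2, Birc5, Aurkb, Plk1, Ccnb2, Ube2c, Mki67, Tpx2 and Cenpf, and 0 members were in CTRL, where Cenpf was highest at 14.9% (9.36 to 22.1). The same count over all genes was not taken, so the members cannot be set against genes at large at that limit. For Ccnb1, Bub1, Aurkb and Plk1 the CTRL granzyme-bearing cells held 0 UMIs. At the other end Tubb5 (6.05% in DHEA), Kif23 (6.57%) and Ccne1 (7.16%) were near the 5.74% that granzyme-bearing cells had of all UMIs. Pcna followed at 9.03% (8.18 to 9.94), an interval above that share.

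**Figure D3:**
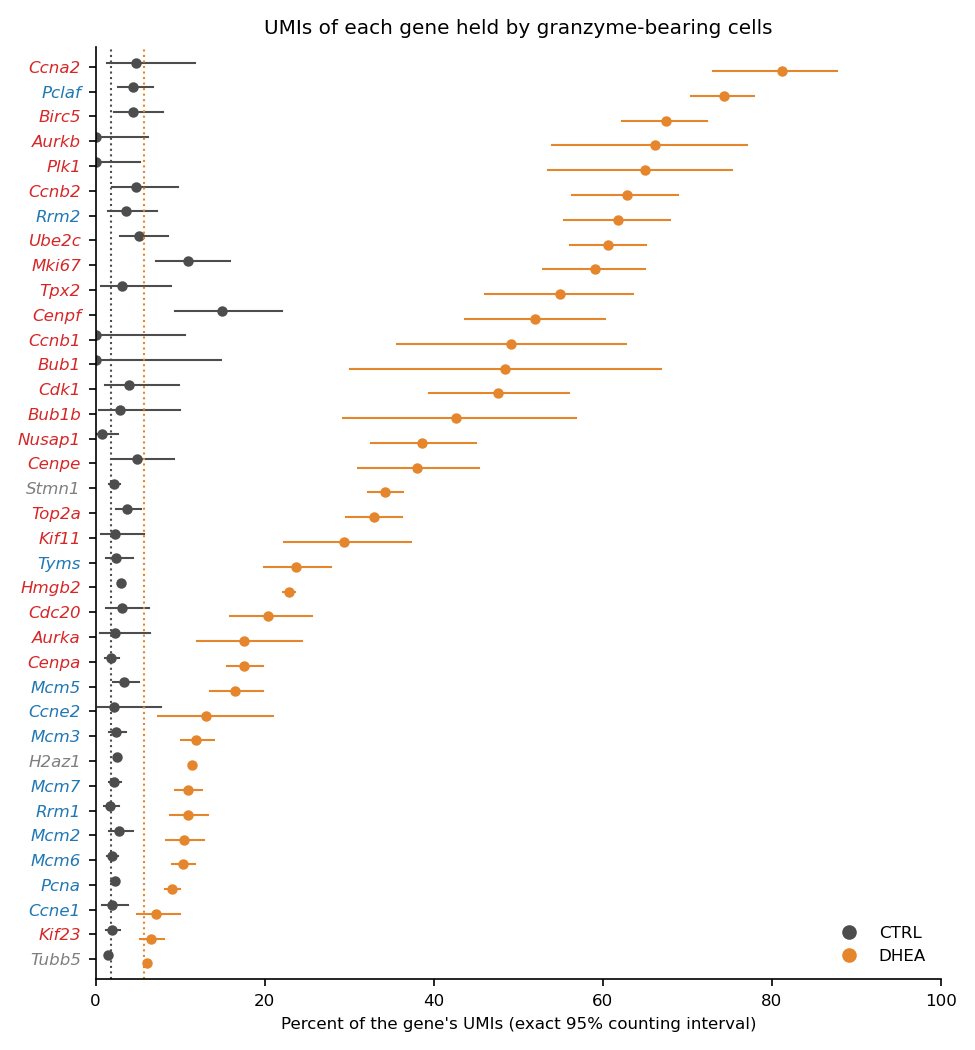
Percent of each member's UMIs (x axis, exact 95% counting intervals) in granzyme-bearing cells of CTRL (grey) and DHEA (orange), gene names in blue for G1/S, red for G2/M and grey for neither. Dotted lines mark the share of all UMIs in those cells, 1.78% and 5.74%. The DHEA points run from 6.05% to 81.2%, and the CTRL points stay at or under 14.9%.

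Set against granzyme-free cells of the same library, granzyme-bearing cells were above them by value for all 37 members in DHEA and for 30 in CTRL. Of all genes with at least 200 UMIs, 5268 of 9434 in DHEA and 4911 of 9377 in CTRL were higher there. In CTRL they were lower for Rrm1, Nusap1 and Tubb5, and held 0 UMIs of 4 members. In DHEA 24 members had at least 200 UMIs, with a median log2 ratio of granzyme-bearing over granzyme-free cells of 1.94, and 21 were at least 1.5-fold higher, where 8.26% of all genes were, and 0 were lower by that fold, where 5.47% were. The limit of 200 UMIs counts both classes, so a gene can meet it through its granzyme-bearing cells. Pclaf (144 UMIs in granzyme-free and 416 in granzyme-bearing cells) and Birc5 (113 and 234) did so, and this count and median include such members. In CTRL 22 members had at least 200 UMIs, with a median of 0.47, and 9 were at least 1.5-fold higher, where 8.41% of all genes were. There 1 member was lower by that fold, Nusap1 with 2.28 CPM from 2 UMIs in granzyme-bearing and 5.54 CPM in granzyme-free cells (-1.28, -4.33 to 0.59), where 9.62% of all genes were. Mki67 had 55.7 CPM in granzyme-bearing and 2.35 in granzyme-free cells of DHEA, and 27.4 and 4.03 CPM in CTRL. Its CTRL value came from 24 UMIs in 4 cells. Pclaf had 145 and 3.05 CPM in DHEA and 21.7 and 8.52 CPM in CTRL, where all 19 UMIs of the granzyme-bearing cells lay in 1 cell.

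Between the libraries, granzyme-bearing cells of DHEA were above those of CTRL for all 37 members by value, and 29 of them had at least 50 UMIs over both. Of all 7152 genes with that many, 3838 were higher in DHEA. Of the measured members 23 were at least 1.5-fold higher, where 11.1% of all genes were, and 0 were lower by that fold, where 6.21% were. That filter can be met through the DHEA library alone. The G1/S members summed to 337 CPM in CTRL and 652 in DHEA, a log2 ratio of 0.95 (0.78 to 1.14), and the G2/M members to 587 and 1791 CPM, a ratio of 1.61 (1.48 to 1.74). Birc5 had 11.4 and 81.5 CPM (2.84, 1.93 to 3.92), Ube2c 16.0 and 99.2 CPM (2.63, 1.86 to 3.52), Hmgb2 378 and 1030 CPM (1.45, 1.28 to 1.61) and Nusap1 2 and 97 UMIs (3.89, 2.00 to 6.95). For the members at 0 UMIs in CTRL, a floor of 3 UMIs in place of 0 gave log2 ratios of 2.40 for Plk1, 2.26 for Aurkb, 1.51 for Ccnb1 and 0.61 for Bub1. The exact lower ends, which also count the error of the DHEA UMIs, were 2.05, 1.90, 1.12 and 0.13. The smallest ratios were those of Kif23 at 26.2 and 27.1 CPM (0.05, -0.64 to 0.79), Cenpf at 22.8 and 26.8 CPM (0.23, -0.49 to 1.02) and Pcna at 110 and 132 CPM (0.27, -0.06 to 0.61).

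The 2 granzyme-bearing classes were not alike in their granzyme UMIs. Outside the G2/M cells, 31 of 123 CTRL and 233 of 504 DHEA granzyme-bearing cells had at least 2 granzyme UMIs, and the medians were 1 in both libraries. Cells with a UMI of the naive-type gene Ccr7 and none of Ccl5 should lack granzymes, and 0.506% (0.309 to 0.780) of 3956 such cells in CTRL and 1.84% (1.42 to 2.35) of 3476 in DHEA had a granzyme UMI, at median depths of 5708.5 and 4931.5 UMIs. Cells that carry 1 granzyme UMI from free RNA could not be told apart from cells that make little, and their part in the values above was not tested. With at least 2 granzyme UMIs required, the ratio of granzyme-bearing cells was 2.36 for the G1/S sum and 3.09 for the G2/M sum. With Gzmm added to the granzymes it was 0.36 and 1.01.

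In granzyme-free cells most members leaned the other way. The G1/S members summed to 255 CPM in CTRL and 232 in DHEA, a log2 ratio of -0.14 (-0.18 to -0.10), and the G2/M members to 334 and 302 CPM, also -0.14 (-0.18 to -0.11). Of 36 members with at least 50 UMIs, 29 were lower in DHEA, where 6644 of all 12697 genes were. The median of these 36 was -0.26, beside -0.01 for all genes. At least 1.5-fold lower were 12 members, where 3.96% of all genes were, and 0 were higher by that fold, where 2.75% were. The limit of 50 UMIs can be met through the CTRL library alone. That was so for Ccna2 (80 UMIs in CTRL and 23 in DHEA), Plk1 (68 and 28) and Aurkb (58 and 24), among others. The largest differences were those of Ccna2 (1.65 and 0.487 CPM, -1.76, -2.50 to -1.08), Pclaf (8.52 and 3.05 CPM, -1.48, -1.77 to -1.20), Plk1 (1.41 and 0.593 CPM, -1.25, -1.94 to -0.59) and Aurkb (1.20 and 0.508 CPM, -1.24, -1.99 to -0.53). These sums changed with depth. The G2/M ratio became 0.05 without the deepest 5% of cells and 0.03 in cells thinned to 2000 UMIs, so its direction is not settled, and the G1/S ratio became -0.03 and -0.02.

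Counts of cells were taken at equal depth, with each cell thinned to 2000 UMIs and 231 shallower CTRL and 1862 shallower DHEA cells left out. G2/M cells then made up 26 of 8486 CTRL cells (0.306%, 0.20 to 0.449) and 50 of 8837 DHEA cells (0.566%, 0.420 to 0.745). Without thinning they were 77 (0.883%) and 108 (1.01%). Of the 26 CTRL cells 7 had exactly 3 members, and of the 50 DHEA cells 14 did, while 53 and 80 further cells had 2 and fell just short. In both libraries the counts reached far past that limit, to 12 members in a CTRL cell and 15 in a DHEA cell. The G2/M cells had been deep before thinning, with medians of 14916 UMIs in CTRL and 6858.5 in DHEA, where the cells of neither phase had 5675.5 and 5262. Without the deepest 5% of cells the counts were 7 of 8050 (0.0870%) and 28 of 8302 (0.337%). Whether doublets are among these deep cells was not tested, since the doublet caller had not worked.

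Granzyme UMIs were in 1 of the 26 CTRL G2/M cells (3.85%, 0.0973 to 19.6) and in 33 of the 50 DHEA G2/M cells (66.0%, 51.2 to 78.8). Without the deepest 5% of cells the shares were 1 of 7 (14.3%) and 19 of 28 (67.9%). Among all thinned cells 0.660% and 3.49% had one, and without thinning 4 of 77 (5.19%) and 46 of 108 (42.6%) G2/M cells did. The DHEA G2/M cells carried many: before thinning the median in those with any was 10 granzyme UMIs and the most 199, and 43 of the 108 had at least 2. In the 4 CTRL cells the median was 1 and the most 2. With at least 2 granzyme UMIs required after thinning, the shares were 0 of 26 (exact upper limit 13.2%) and 25 of 50. Seen from the other side, 33 of 308 granzyme-bearing DHEA cells (10.7%, 7.49 to 14.7) and 1 of 56 in CTRL (1.79%, 0.0452 to 9.55) were G2/M cells. Of granzyme-free cells 25 of 8430 in CTRL (0.297%, 0.192 to 0.438) and 17 of 8529 in DHEA (0.199%, 0.116 to 0.319) were, intervals that overlap.

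**Figure D4:**
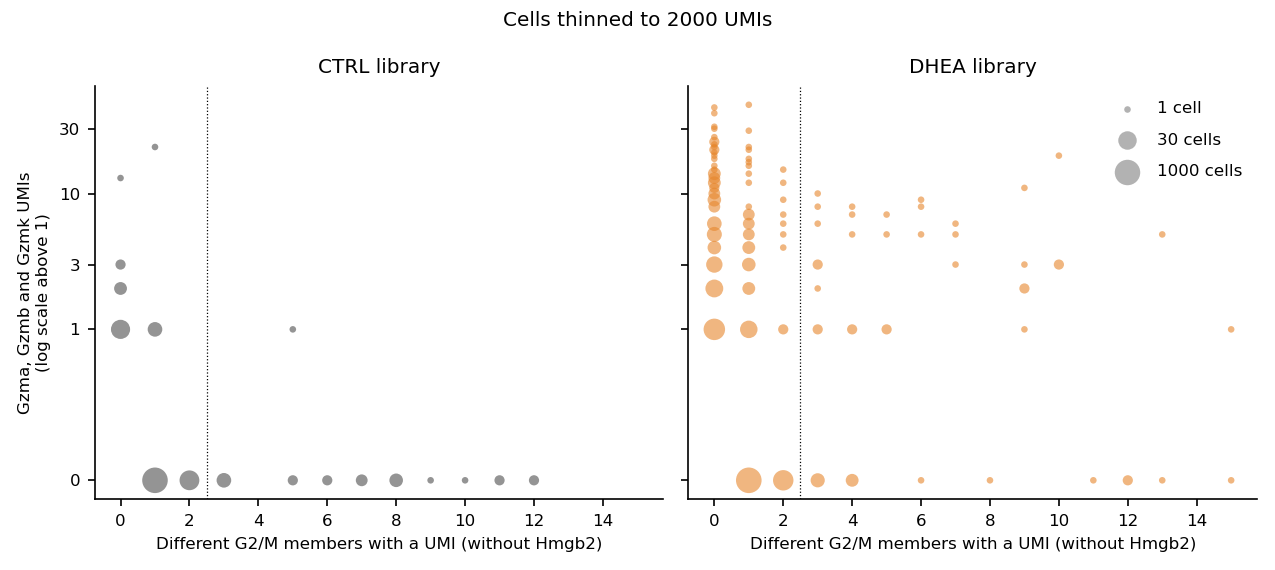
Cells thinned to 2000 UMIs by the number of different G2/M members without Hmgb2 (x axis) and their Gzma, Gzmb and Gzmk UMIs (y axis, log scale above 1), with circle area growing with the log of the number of cells and cells at 0 on both axes not drawn. Right of the dotted line lie the G2/M cells, 26 in CTRL with granzyme UMIs in 1 and 50 in DHEA with granzyme UMIs in 33.

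G1/S cells, with at least 3 different G1/S members and too few G2/M members to be G2/M cells, were 64 of 8486 in CTRL (0.754%, 0.581 to 0.962) and 84 of 8837 in DHEA (0.951%, 0.759 to 1.18). Of them 0 of 64 in CTRL (exact upper limit 5.60%) and 15 of 84 in DHEA (17.9%, 10.4 to 27.7) were granzyme-bearing. This class was not particular to cells that also carried mitotic genes. Cells without any G2/M member met the same limit in 0.708% and 0.844%, and without thinning the class grew to 8.82% in CTRL and 6.52% in DHEA. The limit sits where the counts fall steeply, with 62 CTRL and 70 DHEA cells at exactly 3 members and 480 and 500 at 2. Of the G2/M cells themselves 14 of 26 in CTRL and 26 of 50 in DHEA also had 3 or more G1/S members.

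Some other genes of the G2/M cells also differed between the libraries. Tcf7, a transcription factor of naive and memory T cells, had UMIs in 18 of 26 CTRL G2/M cells (69.2%, 48.2 to 85.7) and 18 of 50 in DHEA (36.0%, 22.9 to 50.8). In DHEA it was in 12 of 17 granzyme-free and 6 of 33 granzyme-bearing G2/M cells. Lef1, a factor of the same family as Tcf7, was in 17 of 26 (65.4%) in CTRL and 16 of 50 (32.0%) in DHEA. In cells of neither phase Tcf7 stood at 63.3% in CTRL and 62.1% in DHEA, and Lef1 at 83.8% and 79.5%. Ccl5, a chemokine of memory and effector CD8 cells, was in 4 of 26 (15.4%, 4.36 to 34.9) and 37 of 50 (74.0%, 59.7 to 85.4), where cells of neither phase stood at 20.3% and 40.0%. Other genes of memory and effector cells did not all follow Ccl5. Ly6c2 was in 5 of 26 CTRL and 30 of 50 DHEA G2/M cells. Cd44 was in 4 and 5 of them, Cxcr3 in 6 and 15, Il2rb in 3 and 9, and Eomes in 1 and 5. For Cd44, Cxcr3, Il2rb and Eomes the intervals of the libraries overlap. S100a6, a calcium-binding protein, was in 2 of 26 (7.69%) and 33 of 50 (66.0%), beside 3.62% and 7.80% in cells of neither phase. Within DHEA, S100a6 was in 3 of 17 granzyme-free and 30 of 33 granzyme-bearing G2/M cells, and Ccl5 in 7 and 30. The galectin Lgals1 was frequent in both, in 15 of 26 (57.7%) and 43 of 50 (86.0%), beside 12.7% and 16.9% in cells of neither phase.

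Among the granzymes of the DHEA G2/M cells Gzmb was the most frequent, in 26 of 50, with Gzmk in 18 and Gzma in 14. In granzyme-bearing DHEA cells of neither phase Gzma led instead, in 154 of 260, with Gzmb in 121 and Gzmk in 85. Klrg1, a receptor of late effector cells, was in 7 of 50 DHEA and 0 of 26 CTRL G2/M cells. Cx3cr1, another effector gene, had the same counts, while S1pr5 was in 0 of either library. Of the 6 activation genes, Cd69 was in 5 of 26 CTRL and 7 of 50 DHEA G2/M cells, beside 36.9% and 38.7% in cells of neither phase. Irf4 was in 2 CTRL cells, Tnfrsf9 in 2 and Egr2 in 1 DHEA cell, and Il2ra and Nr4a1 in 0 of either library. Of the markers of other lineages, the lists for CD4 T cells, myeloid cells and megakaryocytes had 0 UMIs in the 26 CTRL and 50 DHEA G2/M cells. The natural killer and innate list had 0 in CTRL and reached 2 of 50 cells in DHEA, the B cell list 1 cell in each library and the erythroid list 2 of 50 cells in DHEA and 0 in CTRL. Both of these DHEA cells had at least 2 erythroid markers, beside 0 of 8703 DHEA cells of neither phase. Leaving out cells with at least 2 markers of other lineages before thinning left 23 of 26 CTRL and 45 of 50 DHEA G2/M cells, beside 8325 of 8486 and 8628 of 8837 of all cells. The granzyme-bearing shares of those left were 1 of 23 (4.35%) and 30 of 45 (66.7%). At least 1 of 6 CD8 T cell markers was kept by 26 of 26 and 49 of 50.

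**Figure D5:**
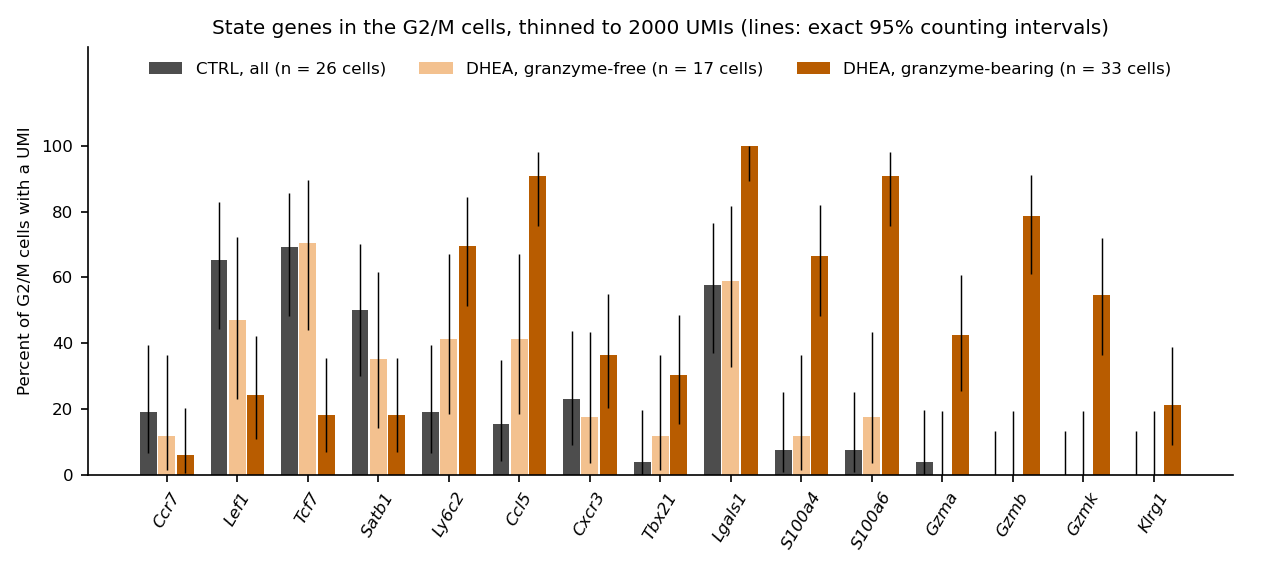
Percent of thinned G2/M cells with a UMI of each state gene (y axis; lines are exact 95% counting intervals) in all 26 CTRL cells, the 17 granzyme-free and the 33 granzyme-bearing DHEA cells. Tcf7 stands at 69.2% in CTRL, 70.6% in granzyme-free and 18.2% in granzyme-bearing DHEA cells. S100a6 stands at 7.69%, 17.65% and 90.9% in the same order. Granzyme bars of the granzyme-free cells are 0 by construction.

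Other genes of the pathway were close to level over all cells. Of 38 further G1/S genes 32 were measured, 16 higher and 16 lower in DHEA, with a median log2 ratio of 0.004. Of 40 further G2/M genes 27 were measured, 15 higher and 12 lower, with a median of 0.02, and in both lists 0 genes were 1.5-fold apart, which is near the 1.81% higher and 1.44% lower among all genes. In granzyme-bearing cells these lists had medians of 0.41 and 0.72, and in granzyme-free cells of -0.10 and -0.20. Named by size of their ratio, the further G1/S genes were Uhrf1 (a factor of maintenance methylation, 0.46, 0.16 to 0.77), Tk1 (thymidine kinase, 0.32, -0.05 to 0.71), Prim1 (a primase subunit, -0.31, -0.47 to -0.14) and Blm (a helicase, -0.30, -0.47 to -0.13). The further G2/M genes were Tubb4b (a beta tubulin, 0.54, 0.49 to 0.59), Cks2 (0.48, 0.38 to 0.58) and Cks1b (0.35, 0.15 to 0.55), both small partners of cyclin-dependent kinases, and Cdca3 (0.37, 0.01 to 0.74).

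Of 28 regulators of the cycle 23 were measured, 16 higher and 7 lower in DHEA, with a median of 0.15. Of all 10515 genes measured, 5204 were higher and 5311 lower. E2f2, an E2F transcription factor of lymphocytes, had 3.74 CPM in CTRL and 6.77 in DHEA, a log2 ratio of 0.86 (0.59 to 1.12), and 0.70 (0.42 to 0.98) in granzyme-free cells. Cdk2, the kinase that cyclin E binds, had 4.0 and 5.69 CPM, a ratio of 0.51 (0.24 to 0.78). Ccnd3, the D cyclin of lymphocytes, had 686 and 541 CPM, a ratio of -0.34 (-0.37 to -0.32), and Tob1, an inhibitor of T cell proliferation, had 33.9 and 43.1 CPM, a ratio of 0.34 (0.25 to 0.44). Ccnd3 and Tob1 kept these ratios in granzyme-free cells, at -0.34 and 0.32.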

How the data were processed

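The deposited values are UMI counts for each gene in each barcode, not normalized, and Cell Ranger 8.0.1 made them per the file headers. Seurat 4.3.0 and mm39 stand in the submitters' processing notes, with no role given. Promoter coordinates are of another build, GRCm38.p6, and were used for the sequences only. The sources used here name no filter on barcodes. Cells were filtered as described, counts were summed per library and granzyme class and scaled to CPM, and a gene was measured if its UMIs over both libraries came to 200 or more (50 within granzyme classes). CPM carry exact Poisson, shares exact Clopper-Pearson and ratios exact split intervals at 95%. Ratios took 3 UMIs in place of 0, and none was computed where both libraries had 3 or fewer. Thinning drew 2000 UMIs per cell without replacement, once, over all filtered cells. The steps were tested on simulated data. The alternative scalings used edgeR 4.0.16 factors. Other tools were R 4.3.3 and Python 3.11.15 with numpy 2.4.6, scipy 1.17.1, pandas 2.3.3, scanpy 1.11.5 (Scrublet) and matplotlib 3.10.9.

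The members and lists were chosen with earlier results of these data known. All 37 members are named, and of each of the 3 further lists the 4 genes with the largest absolute log2 ratio among those with at least 200 UMIs. State and marker genes are named where they bear on the cells described. Alternatives covered the cells kept, depth, doublets, scaling, the granzyme class, Hmgb2 and the limits of the cell classes.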

Additional observations from a re-analysis of the deposited data

How the results depend on the processing

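Of 139 alternative values, 87 stayed within the counting interval of the reported one (counts of members within 1.5 times), 50 moved past it and 2 changed direction. That interval is wide for the granzyme-bearing share of CTRL G2/M cells, 3.85% from 1 cell, which was 14.3% without the deepest 5%, 1.27% with at least 2 members, 7.69% with Gzmm and 6.67% at 1000 UMIs. The 2 changes of direction are those of the G2/M log2 ratio in granzyme-free cells, which was 0.05 without the deepest 5% of cells and 0.03 in sums of cells thinned to 2000 UMIs.

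Without the deepest 5% the G1/S ratio was 0.03 in all and -0.03 in granzyme-free cells, the G2/M ratio of granzyme-bearing cells 1.17, the members at least 1.5-fold higher 1 of 21, and the G2/M cell shares 0.0870% in CTRL and 0.337% in DHEA. In thinned sums the G1/S ratios were 0.08 in all, -0.02 in granzyme-free and 2.19 in granzyme-bearing cells, the G2/M ratios 0.24 in all and 1.81 in granzyme-bearing cells, and 0 of 16 members were past the fold. With all filtered cells, CD8 and CD3 UMIs not asked for, the G2/M ratio was 0.14, that of granzyme-free cells -0.19, and 1 of 32 members was past the fold. Without cells with 2 markers of other lineages the G2/M ratio was 0.13, the granzyme-bearing ratios 0.77 (G1/S) and 1.43 (G2/M), and 1 of 29 members was past the fold. Without the highest scores of the doublet caller, which had not worked, the G2/M ratio was 0.23.

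With Gzmm as a granzyme the granzyme-bearing ratios were 0.36 (G1/S) and 1.01 (G2/M). With at least 2 granzyme UMIs they were 2.36 and 3.09, and 0% of CTRL and 50% of DHEA G2/M cells were granzyme-bearing. Without Hmgb2 the G2/M ratio was -0.30 in granzyme-free and 1.87 in granzyme-bearing cells.

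The cell classes follow the limit and depth. With at least 2 members, G2/M cells were 0.931% of CTRL and 1.47% of DHEA, G1/S cells 6.29% and 6.42%, and 32.3% of DHEA G2/M cells were granzyme-bearing. With at least 5, G1/S cells were 0.0589% and 0.158% and DHEA G2/M cells 0.306%. At 1000 UMIs, G2/M cells were 0.172% and 0.294% and G1/S cells 0.161% and 0.256%. Not thinned, G2/M cells were 0.883% and 1.01%, G1/S cells 8.82% and 6.52%, and 42.6% of DHEA G2/M cells were granzyme-bearing.

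As alternatives chosen after seeing the data, a mean over cells gave 0.04 (G1/S, all), -0.05 (G1/S, granzyme-free), -0.02 (G2/M, granzyme-free) and 1.25 (G2/M, granzyme-bearing), and a second thinning draw found 0% of 29 CTRL G2/M cells granzyme-bearing. The causes of these shifts were not tested. No paired analysis was possible because each group is 1 library. A single library per group leaves the treatment, the animals and the library confounded, and the granzyme-bearing CTRL values are limited by their number of cells, 127.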
